A study of Mus musculus with 12 samples.

Results

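The genes described here are Trp53, which encodes the tumour suppressor p53, and 9 genes that stand downstream of it or beside it in the response to cell stress. They were taken by name from the deposited gene table as Trp53, Mdm2, Cdkn1a, Ccng1, Gadd45a, Gadd45b, Gadd45g, Bbc3, Pmaip1 and Bax. All 10 names had a row among the 24340 rows of the table, and 9 of the 10 were expressed highly enough to be tested. Liver RNA of C57BL/6 mice was sequenced after poly(A) selection, as 12 libraries, 3 in each of 4 groups. For the study, mice drank water that held 3-phenylpropionic acid (PPA), a microbial product of aromatic amino acids, or plain water, for 4 weeks. They were then fasted for 16 h and given acetaminophen (APAP), a painkiller that damages the liver in overdose, at 300 mg/kg by injection into the peritoneum. Livers were collected 6 h or 0 h afterwards.

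PPA_6h stands for mice on PPA water at 6 h after APAP, CTL_6h for mice on plain water at 6 h, PPA_0h for mice on PPA water at 0 h and CTL_0h for mice on plain water at 0 h, and a number after the name gives the replicate. Mice of every group were fasted, and the labels do not make clear whether 0 h mice were injected. There was no group without APAP at 6 h, so the effect of APAP cannot be told apart from that of the hour of day or of the longer time since the fast began. Whether libraries are from different mice is not stated, so a p-value here measures only how far these samples spread, which may be technical.

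p53 is a transcription factor that is held at a low level by Mdm2, a ubiquitin ligase that marks it for destruction, and it accumulates when DNA damage or other stress releases it from Mdm2. Because p53 is controlled largely as a protein, its mRNA need not follow its activity, and Mdm2 is itself a target of p53. Stabilised p53 raises Cdkn1a, the cell cycle inhibitor p21, and genes of apoptosis such as Bbc3 (PUMA), Pmaip1 (NOXA) and Bax, while the Gadd45 proteins bind the kinase MTK1 and pass stress signals to p38 and JNK. Most of these genes also respond to stress factors other than p53. In the liver, APAP is converted to a reactive metabolite that damages mitochondria and kills hepatocytes around the central vein, and JNK activity is a known part of that injury.

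The genes whose level was called higher after APAP in control mice (mice on plain water) were Gadd45a, Mdm2, Cdkn1a, Gadd45b and Bbc3. For these 5 genes, sequences just upstream of transcript starts are shown. They are RefSeq sequences of build GRCm38.p6, read 5′ to 3′ on the gene's strand, and each window holds up to 250 bases that end at a RefSeq transcript start, without bases that GENCODE places in an exon. Cdkn1a has 2 such windows, upstream and downstream, and for Bbc3 the most upstream of its 3 windows is given. By GENCODE, the downstream Cdkn1a window and the 3 windows of Bbc3 lie inside the gene, in intron sequence. Capitals mark the decamer motif of p53, which is a half-site and not a whole p53 site.
Gadd45a, chr6:67037458-67037657, minus strand: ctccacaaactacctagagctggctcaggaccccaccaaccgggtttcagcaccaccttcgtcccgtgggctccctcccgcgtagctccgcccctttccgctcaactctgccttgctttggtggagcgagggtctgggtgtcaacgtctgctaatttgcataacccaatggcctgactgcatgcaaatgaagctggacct
Mdm2, chr10:117710759-117711008, minus strand: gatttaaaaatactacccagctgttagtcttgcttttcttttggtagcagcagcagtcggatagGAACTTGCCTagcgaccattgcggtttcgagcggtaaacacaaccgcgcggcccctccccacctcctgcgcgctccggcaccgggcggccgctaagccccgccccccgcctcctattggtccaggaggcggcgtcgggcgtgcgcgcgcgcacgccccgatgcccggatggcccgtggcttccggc
Cdkn1a, chr17:29090729-29090975, plus strand: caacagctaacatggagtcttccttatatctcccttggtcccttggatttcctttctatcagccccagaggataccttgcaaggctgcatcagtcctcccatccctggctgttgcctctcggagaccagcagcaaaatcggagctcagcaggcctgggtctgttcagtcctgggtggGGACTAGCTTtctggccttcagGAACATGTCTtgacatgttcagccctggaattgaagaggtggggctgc
Cdkn1a, chr17:29093519-29093768, plus strand: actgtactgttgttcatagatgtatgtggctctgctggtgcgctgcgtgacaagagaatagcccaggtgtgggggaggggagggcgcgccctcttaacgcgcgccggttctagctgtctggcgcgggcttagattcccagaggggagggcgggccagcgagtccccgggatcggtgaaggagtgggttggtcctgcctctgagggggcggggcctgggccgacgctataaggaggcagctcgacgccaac
Gadd45b, chr10:80929841-80930072, plus strand: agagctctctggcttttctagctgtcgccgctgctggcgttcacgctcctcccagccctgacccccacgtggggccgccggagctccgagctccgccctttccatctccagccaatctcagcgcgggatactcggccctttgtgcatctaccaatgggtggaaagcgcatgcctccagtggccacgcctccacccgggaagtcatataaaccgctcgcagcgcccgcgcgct
Bbc3, chr7:16309333-16309582, plus strand: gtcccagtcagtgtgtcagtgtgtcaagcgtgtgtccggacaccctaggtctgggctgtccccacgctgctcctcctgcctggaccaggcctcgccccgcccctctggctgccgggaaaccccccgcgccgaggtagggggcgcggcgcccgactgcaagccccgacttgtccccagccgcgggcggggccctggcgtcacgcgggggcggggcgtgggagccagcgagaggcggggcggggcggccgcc

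The upstream Cdkn1a window held 2 matches to the p53 decamer motif and the Mdm2 window held 1, on either strand, whereas the Gadd45b window and the downstream Cdkn1a window shown held 0. In Gadd45a, 1 match lay among the 50 exon bases that were left out. The windows of Bax, Ccng1 and Trp53, not shown, held 1 match each, and the 3 windows of Bbc3 held 0. Over 32851 RefSeq windows of 250 bases, 7.13% held this motif. The letters TGANTCA (AP-1) occurred in 6.75% of all windows and TGACGTCA (CRE) in 1.55%, and neither occurred in a window of these genes, on either strand. TGATGNAA, the composite C/EBP-ATF motif, occurred in 3.45% of all windows and among these genes in Gadd45g alone, once. The window of Pmaip1 is not used here. A match describes letters only, and known p53 sites of several of these genes lie in intron sequence that these windows do not hold.

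The unit of level is FPKM, a fragment count divided by transcript length and library size, which allows levels of different genes to be compared. The sum of FPKM per library was 593025 to 769104, and 9277 to 9535 genes reached 1 FPKM. Depth, estimated from the steps that single fragments make in low values, was 6990000 to 10150000 fragments in the 6 h libraries and 3250000 to 5030000 in the 0 h libraries, so time and depth cannot be told apart. All 7 hepatocyte markers that were measured stood at a mean of 1 FPKM or more in each group. Library CTL_6h_4 stood apart by its skeletal muscle markers, which summed to 106 FPKM there and to at most 1.54 FPKM in any other library. The 9 neutrophil markers summed to 19.2, 17.5 and 24.7 FPKM in PPA_6h libraries, to 45.1, 11.3 and 54.7 in CTL_6h libraries, and to between 0.507 and 3.15 at 0 h. Of these 9, 3 reached a mean of 1 FPKM in each 6 h group, and Ngp, Ltf and Camp were listed at 0 in all CTL_6h libraries. The 6 cholangiocyte markers summed to 27.1 to 42.1 FPKM in PPA_6h libraries, against 15.2 to 18.9 in PPA_0h, and to 20.6 to 54.5 in CTL_6h, against 13.6 to 19.1 in CTL_0h. The neutrophil and cholangiocyte sums were higher at 6 h without overlap in both diets. The stellate cell sum was so in PPA mice, at 81.4 to 83.9 FPKM in PPA_6h, against 57.2 to 71.6 in PPA_0h, and the monocyte or macrophage sum in control mice, at 28.2 to 43.5 in CTL_6h, against 23.7 to 26.03 in CTL_0h. B cell markers, at most 1.68 FPKM in sum, were higher at 6 h in PPA mice and lower in control mice, and the sums of the other 6 of 11 lists overlapped. The part of these sums in the changes below was not tested. In bulk tissue, fewer cells of a type and less RNA per cell cannot be told apart.

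After APAP, 3 of the 9 tested genes were called higher in PPA mice, namely Gadd45a, Mdm2 and Gadd45b, and 5 of the 9 in control mice, namely Gadd45a, Mdm2, Cdkn1a, Gadd45b and Bbc3. None of the 9 was called lower in either diet. A gene was called at an adjusted p under 0.05 in limma, fitted to log2(FPKM + 1) over all tested genes with Benjamini-Hochberg adjustment. In PPA mice 28.2% of the 10044 tested genes were called, 15% higher and 13.3% lower, and in control mice 26.9% were called, 15.2% higher and 11.8% lower. Quantile normalization gave 1400 higher and 1614 lower in PPA mice, against 1502 and 1335 as reported, and 1307 higher and 1594 lower in control mice, against 1522 and 1181 as reported. At an unadjusted p under 0.05 stood 40.1% of tested genes in PPA mice and 39.1% in control mice. The 6 h and 0 h groups did not overlap, with 6 h higher, in 24.5% of tested genes in PPA mice and 21.1% in control mice, and with 6 h lower in 23.1% in PPA mice and 18.6% in control mice. The median change of the 9 genes was 0.51 on the log2 scale in PPA mice and 1.23 in control mice, where the median over all tested genes was 0.0033 in PPA mice and -0.0073 in control mice. None of the 9 was called for PPA at either time or for the difference between the APAP responses, except under the alternatives named with those comparisons.

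**Figure D1:**
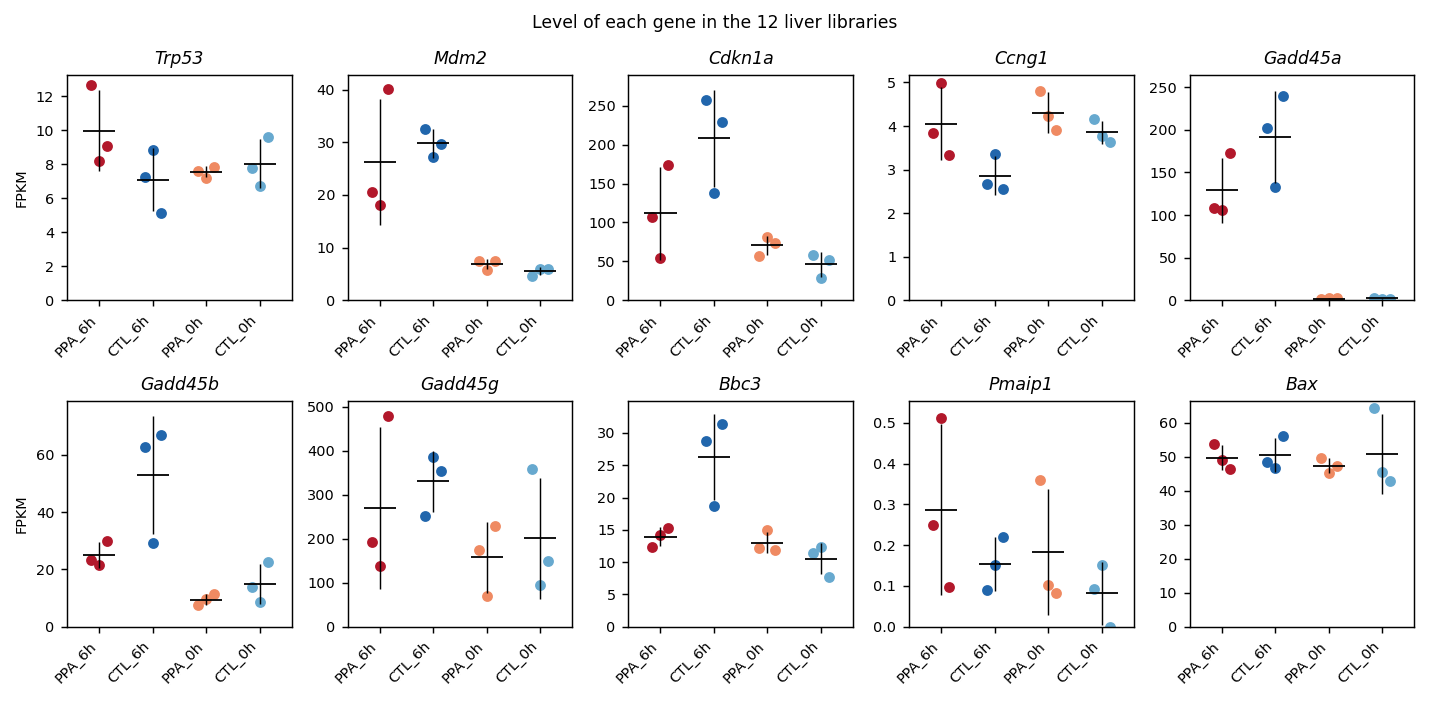
FPKM of the 10 genes (y axes, each from 0) in the 4 groups (x axes). Points are libraries, horizontal lines are means and vertical lines are SD over 3 libraries; Gadd45a separates 6 h from 0 h most widely, and Bbc3 stands high in CTL_6h alone, at 18.8 to 31.4 FPKM.

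Trp53 itself stood between 5.15 and 12.7 FPKM and was not called in any comparison. It measured 12.7, 8.17 and 9.07 FPKM in PPA_6h libraries, 7.24, 8.85 and 5.15 in CTL_6h libraries, 7.62, 7.22 and 7.86 in PPA_0h libraries and 7.79, 6.73 and 9.62 in CTL_0h libraries. All 3 PPA_6h libraries lay above all 3 PPA_0h libraries, while CTL_6h and CTL_0h overlapped. The log2 change after APAP was 0.34 ± 0.19 (SE, limma adjusted p = 0.209) in PPA mice and -0.18 ± 0.19 (adjusted p = 0.531) in control mice. With sample quality weights the value in PPA mice was 0.51 (adjusted p = 0.0251) and was called. Trp53 lies on chromosome 11 at 69580359-69591873 (GRCm38, plus strand).

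Mdm2, the ubiquitin ligase that removes p53, rose after APAP in both diets. It measured 20.6, 18.1 and 40.0 FPKM in PPA_6h libraries, against 7.43, 5.73 and 7.47 in PPA_0h libraries, and 32.5, 27.1 and 29.7 in CTL_6h libraries, against 4.67, 6.00 and 6.00 in CTL_0h libraries. Every 6 h library was above every 0 h library, and PPA_6h_5 was the highest of all 12. The log2 change was 1.71 ± 0.23 (SE, adjusted p = 0.000221) in PPA mice and 2.23 ± 0.23 (adjusted p = 2.73e-05) in control mice. Set against Trp53 in the same library, Mdm2 averaged 2.75 ± 1.47 times the Trp53 level in PPA_6h libraries, 4.44 ± 1.35 in CTL_6h, 0.906 ± 0.0990 in PPA_0h and 0.705 ± 0.162 in CTL_0h (SD, n = 3 each). This ratio did not overlap between 6 h and 0 h in either diet, and it is given without a test. Mdm2 lies on chromosome 10 at 117688875-117710758 (minus strand).

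Cdkn1a, the p53 target that encodes the cyclin-dependent kinase inhibitor p21, rose after APAP in control mice, where its mean was 4.50 times that at 0 h. It measured 106, 54.5 and 174 FPKM in PPA_6h libraries and 257, 138 and 229 in CTL_6h libraries, against 57.5, 80.8 and 74.0 in PPA_0h libraries and 58.7, 28.5 and 51.4 in CTL_0h libraries. CTL_6h and CTL_0h did not overlap, whereas PPA_6h_2 lay below every PPA_0h library. The log2 change was 0.51 ± 0.37 (SE, adjusted p = 0.332) in PPA mice, with a 95% interval of -0.30 to 1.33, and 2.16 ± 0.37 (adjusted p = 0.00127) in control mice. Relative to Cdkn1b, the gene of the related inhibitor p27, Cdkn1a stood at 20.8 ± 16.4 in PPA_6h libraries, 54.7 ± 29.5 in CTL_6h, 15.4 ± 4.52 in PPA_0h and 7.44 ± 2.94 in CTL_0h (SD, n = 3 each). Cdkn1a lies on chromosome 17 at 29090976-29100727 (plus strand) and shares 273 exon bases with AC167363.2 on the opposite strand, which has no row under that name. Whether reads were counted by strand is not given in the sources used here.

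Ccng1, which encodes the p53 target cyclin G1, was low and was the gene with the most negative change after APAP in control mice. It measured 3.84, 4.98 and 3.34 FPKM in PPA_6h libraries, 2.66, 3.36 and 2.56 in CTL_6h, 4.81, 4.22 and 3.90 in PPA_0h and 4.15, 3.78 and 3.64 in CTL_0h. All CTL_6h libraries lay below all CTL_0h libraries, while PPA_6h and PPA_0h overlapped. The log2 change was -0.08 ± 0.14 (SE, adjusted p = 0.712) in PPA mice and -0.34 ± 0.14 (adjusted p = 0.103) in control mice. The control value passed the threshold under quantile normalization, at -0.40 (adjusted p = 0.0462), and with sample quality weights, at -0.38 (adjusted p = 0.0163). Each library held an estimated 42 to 157 fragments of the gene. The gene lies on chromosome 11 at 40748552-40755311 (minus strand).

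**Figure D2:**
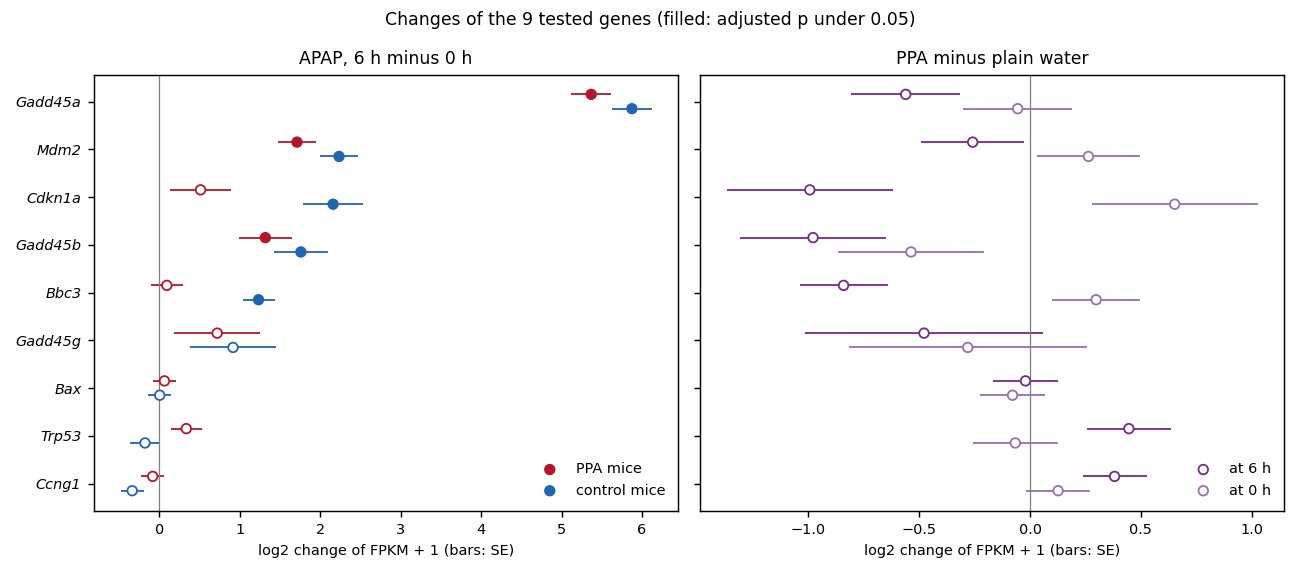
log2 change of FPKM + 1 (x axes) of the 9 tested genes (rows) after APAP in PPA and control mice (left) and for PPA water minus plain water at 6 h and 0 h (right). Bars are SE and filled points have an adjusted p under 0.05, which 3 genes reached in PPA mice, 5 in control mice and 0 on the right.

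The Gadd45 genes, which encode small stress sensors upstream of p38 and JNK, differed widely in level and in response. Gadd45a changed most of the 10 genes. It measured 108, 106 and 172 FPKM in PPA_6h libraries, against 1.59, 2.36 and 2.31 in PPA_0h libraries, and 202, 133 and 239 in CTL_6h libraries, against 3.18, 1.94 and 1.63 in CTL_0h libraries. Every 6 h library was above every 0 h library by a wide margin. The log2 change was 5.37 ± 0.25 (SE, adjusted p = 1.69e-08) in PPA mice and 5.87 ± 0.25 (adjusted p = 6.77e-09) in control mice, and the ratio of mean FPKM was 61.7 in PPA mice and 84.9 in control mice. The 0 h values rested on an estimated 6 to 16 fragments per library, so that the ratios are imprecise and the pseudocount lowers the log2 change. Gadd45a lies on chromosome 6 at 67035096-67037457 (minus strand) and shares 337 exon bases with the antisense gene E230016M11Rik, which stood at 0 to 0.806 FPKM.

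Gadd45b rose in both diets by less. It measured 23.4, 21.5 and 30.0 FPKM in PPA_6h libraries, against 7.41, 9.54 and 11.4 in PPA_0h libraries, and 62.7, 29.1 and 66.8 in CTL_6h libraries, against 13.7, 8.66 and 22.6 in CTL_0h libraries. The 6 h and 0 h groups did not overlap in either diet, and CTL_6h_3 lay among the PPA_6h libraries. The log2 change was 1.32 ± 0.33 (SE, adjusted p = 0.0107) in PPA mice and 1.76 ± 0.33 (adjusted p = 0.00213) in control mice. Gadd45g had the highest level of the 10 genes and the widest spread. It measured 193, 137 and 479 FPKM in PPA_6h libraries, 252, 384 and 355 in CTL_6h, 174, 70.4 and 228 in PPA_0h and 357, 95.4 and 148 in CTL_0h. Both pairs of groups overlapped, and the log2 change was 0.72 ± 0.54 (SE, adjusted p = 0.342) in PPA mice and 0.92 ± 0.54 (adjusted p = 0.226) in control mice. Its 95% interval was -0.44 to 1.88 in PPA mice and -0.24 to 2.08 in control mice, wide enough to hold a change as large as that of Gadd45b. Gadd45b lies on chromosome 10 at 80930073-80932204 and Gadd45g on chromosome 13 at 51846678-51848468 (both plus strand).

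Among the genes of the mitochondrial route of apoptosis, Bbc3 rose in control mice. Bbc3 encodes PUMA, a BH3-only protein that binds the pro-survival BCL2 proteins and frees the effectors BAX and BAK. It measured 12.4, 14.2 and 15.3 FPKM in PPA_6h libraries and 28.7, 18.8 and 31.4 in CTL_6h libraries, against 12.2, 14.9 and 11.9 in PPA_0h libraries and 11.5, 12.4 and 7.75 in CTL_0h libraries. The 3 CTL_6h libraries were above all other 9, and PPA_6h and PPA_0h overlapped. The log2 change was 0.09 ± 0.20 (SE, adjusted p = 0.757) in PPA mice, with a 95% interval of -0.34 to 0.53, and 1.23 ± 0.20 (adjusted p = 0.000742) in control mice. Bbc3 lies on chromosome 7 at 16308393-16318205 (plus strand).

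Bax, the effector that forms pores in the outer mitochondrial membrane, was within a narrow range in most libraries. It measured 53.6, 48.9 and 46.5 FPKM in PPA_6h libraries, 48.4, 46.8 and 56.1 in CTL_6h, 49.6, 45.1 and 47.4 in PPA_0h and 64.4, 45.6 and 42.7 in CTL_0h, and all groups overlapped. The 95% interval of the log2 change after APAP was -0.25 to 0.38 in PPA mice and -0.31 to 0.32 in control mice (limma adjusted p = 0.773 in PPA mice and 0.981 in control mice). Bax lies on chromosome 7 at 45461697-45466898 (minus strand) and shares 192 exon bases with Gm45808 on the same strand, which has no row under that name. How reads of the shared part were assigned is not given in the sources used here. Pmaip1, which encodes the BH3-only protein NOXA, was at the limit of detection. It measured 0.250, 0.513 and 0.0977 FPKM in PPA_6h libraries, 0.0887, 0.152 and 0.220 in CTL_6h, 0.360, 0.102 and 0.0837 in PPA_0h and 0.0921, 0.152 and 0 in CTL_0h. This corresponds to an estimated 2 to 13 fragments at 6 h and 0 to 4 at 0 h, and the gene was not tested.

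Pro-survival BCL2 proteins are the partners that BH3-only proteins bind. Of 8 pro-survival BCL2 genes, 4 were tested, and 1 was called higher in PPA mice and 2 in control mice, with 0 called lower, where 15% of all tested genes were called higher in PPA mice and 15.2% in control mice. Mcl1, a short-lived pro-survival protein, rose by 1.27 ± 0.16 on the log2 scale in PPA mice (SE, adjusted p = 0.000137) and by 1.67 ± 0.16 in control mice (adjusted p = 1.43e-05). Bcl2l1, which encodes BCL-XL, rose by 1.94 ± 0.40 in control mice (adjusted p = 0.00395) and measured 1.14 ± 0.40 in PPA mice (adjusted p = 0.05004), just outside the threshold. The other 2, Bcl2l2 and Bcl2a1b, measured -0.09 ± 0.13 and -0.27 ± 0.29 in PPA mice and -0.23 ± 0.13 and -0.05 ± 0.29 in control mice, and they are named after their values were seen. Of 10 other BH3-only and effector genes, 8 were tested, and 1 was called higher and 4 lower in PPA mice, against 1 higher and 5 lower in control mice. Over all tested genes, 13.3% were called lower in PPA mice and 11.8% in control mice. Bcl2l11 (BIM) was the gene called higher, with a change of 0.78 ± 0.19 in PPA mice and 0.92 ± 0.19 in control mice. Bik changed by -1.05 ± 0.27 in PPA mice and -1.62 ± 0.27 in control mice, and Bok by -0.91 ± 0.19 in PPA mice and -1.10 ± 0.19 in control mice. The median change of that list was -0.33 in PPA mice and -0.39 in control mice.

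Levels of pairs of genes within a library were compared as ratios, given without a test. The ratio of Bbc3 to Mcl1 averaged 0.276 ± 0.0410 in PPA_6h libraries, 0.408 ± 0.0275 in CTL_6h, 0.636 ± 0.0799 in PPA_0h and 0.553 ± 0.133 in CTL_0h (SD, n = 3 each). All 3 PPA_6h ratios, at most 0.323, lay below all 3 CTL_6h ratios, at least 0.391, and Bbc3 alone also did not overlap between these groups. The CTL_6h ratios, at most 0.440, overlapped those of CTL_0h, at least 0.400, while PPA_6h lay below PPA_0h without overlap. The ratio of Bax to Bcl2l1 averaged 1.20 ± 0.734 in PPA_6h libraries, 0.733 ± 0.382 in CTL_6h, 2.31 ± 0.478 in PPA_0h and 2.69 ± 0.291 in CTL_0h. It was lower at 6 h than at 0 h without overlap in control mice, and PPA_6h_2, at 2.001, lay among the PPA_0h libraries.

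**Figure D3:**
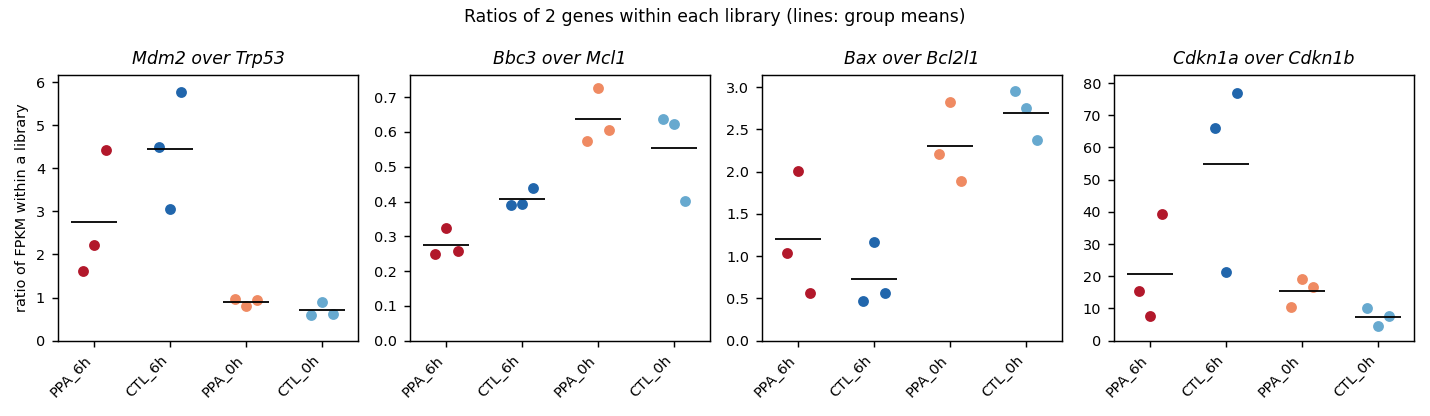
Ratio of the FPKM of 2 genes within each library (y axes, from 0) in the 4 groups (x axes). Points are libraries and lines are means over 3 libraries; Mdm2 over Trp53 is 1.62 to 5.76 at 6 h and 0.600 to 0.975 at 0 h.

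Of 32 further targets of p53, 22 were tested, and 7 were called higher and 3 lower in PPA mice, against 7 higher and 2 lower in control mice. Over all tested genes, 15% were called higher and 13.3% lower in PPA mice, and 15.2% higher and 11.8% lower in control mice, so the lower calls were near the general share. The median change of the 22 was 0.30 in PPA mice and 0.10 in control mice, beside 0.0033 in PPA mice and -0.0073 in control mice over all tested genes. Btg2, an antiproliferative gene, rose by 2.49 ± 0.39 on the log2 scale in PPA mice (SE, adjusted p = 0.000692) and by 4.53 ± 0.39 in control mice (adjusted p = 6.10e-06). The stress kinase Plk3 rose by 2.43 ± 0.45 in PPA mice and 4.13 ± 0.45 in control mice, and Plk2 by 1.38 ± 0.15 in PPA mice and 1.42 ± 0.15 in control mice. Trp53inp1, whose protein promotes p53 activity, rose by 1.95 ± 0.28 in PPA mice and 2.50 ± 0.28 in control mice. Ei24, a gene of the endoplasmic reticulum, fell, with a change of -0.82 ± 0.11 in PPA mice and -0.59 ± 0.11 in control mice. The sestrin Sesn1 measured -0.10 ± 0.14 in PPA mice and -0.21 ± 0.14 in control mice, the effector Perp -0.08 ± 0.16 in PPA mice and -0.01 ± 0.16 in control mice, and the nucleotide excision repair gene Xpc -0.22 ± 0.14 in PPA mice and -0.25 ± 0.14 in control mice, none of them called. Sesn1, Perp and Xpc were chosen here after their values were seen, as was Sesn2, another sestrin of this list. Sesn2 averaged 12.5 FPKM in CTL_6h, against 3.84 in CTL_0h, and 9.21 in PPA_6h, against 4.94 in PPA_0h.

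Of 19 regulators and partners of p53, 11 were tested, and 2 were called higher in PPA mice and 5 in control mice, with 0 called lower. Over all tested genes, 15% were called higher and 13.3% lower in PPA mice, and 15.2% higher and 11.8% lower in control mice. The higher calls of these regulators in PPA mice were near that share. Ppp1r13b, which encodes the p53-binding protein ASPP1, rose by 0.82 ± 0.21 in PPA mice and 1.03 ± 0.21 in control mice. Usp7, a deubiquitinase of MDM2 and p53, rose by 0.49 ± 0.12 in PPA mice and measured 0.29 ± 0.12 in control mice, not called. Kat5, Trp53bp2 and Rchy1 rose by 0.45 ± 0.12, 0.50 ± 0.14 and 0.39 ± 0.11 in control mice and measured 0.31 ± 0.12, 0.19 ± 0.14 and 0.28 ± 0.11 in PPA mice, not called. Of 10 stress MAP kinases below the Gadd45 proteins, 8 were tested, and 1 was called higher and 1 lower in PPA mice, against 3 higher and 1 lower in control mice. Apart from the higher calls in control mice, these counts were near the shares over all tested genes. Map2k3, which activates p38, rose by 1.13 ± 0.14 in PPA mice and 1.26 ± 0.14 in control mice, while Mapk14, the gene of p38α itself, changed by -0.50 ± 0.13 in PPA mice and -0.60 ± 0.13 in control mice (limma adjusted p = 0.0144 in PPA mice and 0.00565 in control mice). In control mice Map2k4 and Map2k7, which activate JNK, rose by 0.60 ± 0.14 and 0.56 ± 0.15, and in PPA mice they measured 0.40 ± 0.14 and 0.20 ± 0.15, not called.

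Of 14 other CDK inhibitors and cyclins, 11 were tested, and 4 were called higher and 1 lower in PPA mice, against 4 higher and 0 lower in control mice. The shares over all tested genes were 15% higher and 13.3% lower in PPA mice, and 15.2% higher and 11.8% lower in control mice. Ccnd1, the cyclin D1 of the step from G1 to S phase, rose by 1.998 ± 0.34 in PPA mice (SE, adjusted p = 0.00111) and measured 0.57 ± 0.34 in control mice, not called. Ccne1, cyclin E1, rose by 1.49 ± 0.26 in PPA mice and 1.20 ± 0.26 in control mice, and Ccng2, the relative of Ccng1, by 0.53 ± 0.13 in PPA mice and 0.51 ± 0.13 in control mice. Ccnd3 changed by -0.99 ± 0.14 in PPA mice and measured -0.33 ± 0.14 in control mice, not called. Ccnl1 rose by 0.96 ± 0.30 in PPA mice and 2.07 ± 0.30 in control mice. Cdkn2b, which encodes the inhibitor p15, rose by 1.07 ± 0.23 in control mice and measured 0.54 ± 0.23 in PPA mice, not called. Of 13 proliferation genes, 4 passed the filter, and Pcna, the DNA polymerase clamp and also a p53 target, was the 1 called, with a rise of 0.78 ± 0.17 in PPA mice and 0.84 ± 0.17 in control mice. Of 13 caspase, apoptosome and IAP genes, 12 were tested, and 1 was called higher and 2 lower in each diet, close to the shares over all tested genes. Casp6, a caspase of the execution phase, changed by -0.57 ± 0.15 in PPA mice and -0.55 ± 0.15 in control mice. Xiap, an inhibitor of caspases, changed by -0.58 ± 0.15 in control mice and measured -0.09 ± 0.15 in PPA mice, not called.

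**Figure D4:**
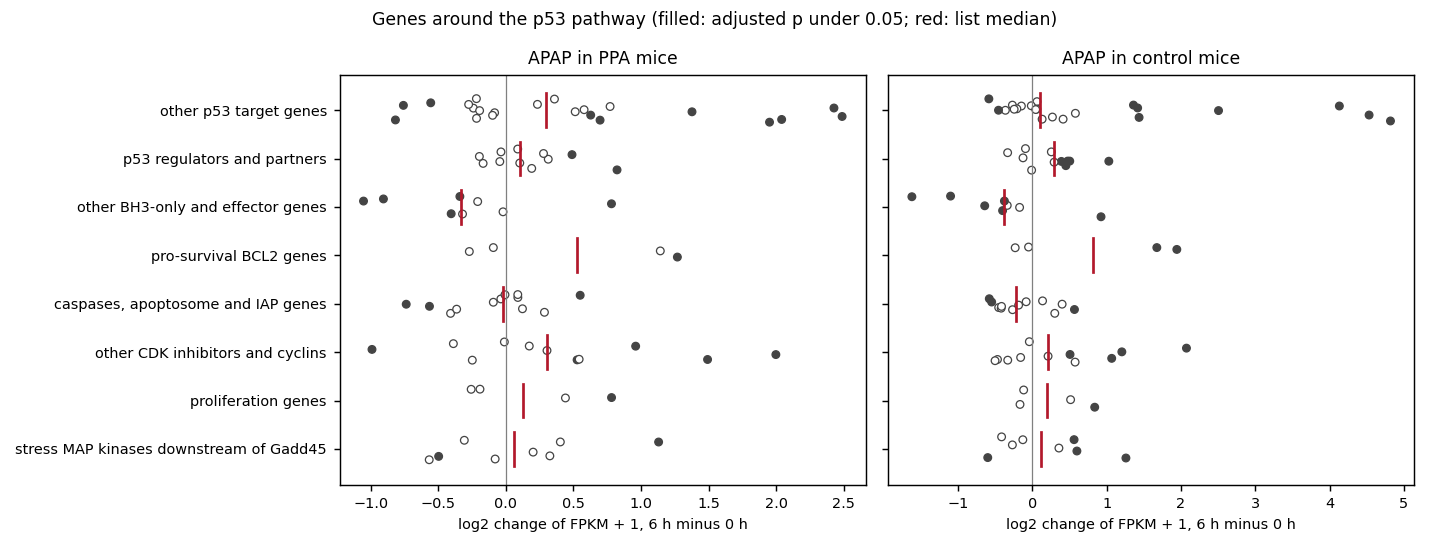
log2 change of FPKM + 1 after APAP (x axes) of the tested genes of 8 lists around p53 (rows) in PPA mice (left) and control mice (right), on axes of different range. Points are genes, filled where the adjusted p is under 0.05, and red lines are list medians; the other p53 targets hold 7 genes called higher in each diet and 3 lower in PPA mice, 2 in control mice.

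PPA water made no called difference in any of the 9 genes, either at 6 h after APAP or at 0 h. At 6 h, 0.139% of tested genes were called, 14 in all, with 6 higher (0.0597%) and 8 lower (0.0796%). At an unadjusted p under 0.05 stood 6 of the 9 genes, where 14.9% of all tested genes did. Bbc3, Gadd45b, Cdkn1a and Gadd45a were lower on average in PPA_6h than in CTL_6h, and Ccng1 and Trp53 were higher. The log2 difference of Bbc3 was -0.84 ± 0.20 (SE, 95% interval -1.27 to -0.41, adjusted p = 0.127), and its groups were the only ones of the 9 that did not overlap, PPA_6h being lower, as for 8.61% of tested genes, while 6.58% did not overlap with PPA_6h higher. Gadd45b differed by -0.98 ± 0.33 (adjusted p = 0.213), Cdkn1a by -0.99 ± 0.37 (adjusted p = 0.258) and Gadd45a by -0.56 ± 0.25 (adjusted p = 0.311). Ccng1 differed by 0.38 ± 0.14 (adjusted p = 0.259) and Trp53 by 0.45 ± 0.19 (adjusted p = 0.299). Mdm2 differed by -0.26 ± 0.23 (95% interval -0.76 to 0.24), Gadd45g by -0.48 ± 0.54 (-1.64 to 0.68) and Bax by -0.02 ± 0.14 (-0.33 to 0.29). No gene of the 8 other lists was called.

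Whether these differences at 6 h were called rested on which libraries were used. With each library left out in turn, Bbc3 ranged from -1.06 to -0.70, Gadd45b from -1.35 to -0.77 and Cdkn1a from -1.39 to -0.56. Gadd45a ranged from -0.80 to -0.38, Ccng1 from 0.25 to 0.48 and Trp53 from 0.26 to 0.60. Of the 9 genes, Bax alone changed sign. PPA_6h_5 was the highest PPA_6h library for Mdm2, Cdkn1a, Gadd45a, Gadd45b, Gadd45g and Bbc3, and CTL_6h_3 was the lowest CTL_6h library for Mdm2, Cdkn1a, Gadd45a, Gadd45b and Bbc3. CTL_6h_3 was also the lowest CTL_6h library for the summed markers of all 11 cell type lists, and PPA_6h_5 was the highest PPA_6h library for 5 of them, the hepatocyte, neutrophil, stellate cell, B cell and skeletal muscle lists. The hepatocyte markers summed to 28171, 22721 and 32805 FPKM in PPA_6h libraries and to 35380, 31001 and 39189 in CTL_6h libraries. The part of these sums in the differences was not tested. Without CTL_6h_3, Bbc3 differed by -1.06 (limma adjusted p = 0.00989) and Gadd45b by -1.35 (adjusted p = 0.0230), both then called, and the number of genes called in all was 818. Without PPA_6h_5, Bbc3 differed by -0.91 (adjusted p = 0.0472) and Cdkn1a by -1.39 (adjusted p = 0.0484), and 384 genes were called. Without CTL_6h_4, the library with muscle markers, Bbc3 differed by -0.70 (adjusted p = 0.457), Gadd45b by -0.77 and Cdkn1a by -0.90, and 3 genes were called. Sample quality weights, which ranged from 0.318 for CTL_6h_3 to 6.29 for CTL_6h_2, called 7 of the 9 genes and 3633 genes in all. The APAP calls of Gadd45a, Mdm2, Gadd45b, Cdkn1a and Bbc3 held without each of these libraries. The fits covered all tested genes, but those of single genes of other lists are not given here. Without CTL_6h_3 or CTL_6h_4, Cdkn1a rose in control mice by 2.43 or 2.07 and Bbc3 by 1.45 or 1.09. PPA_6h_5 does not enter the size of these changes.

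**Figure D5:**
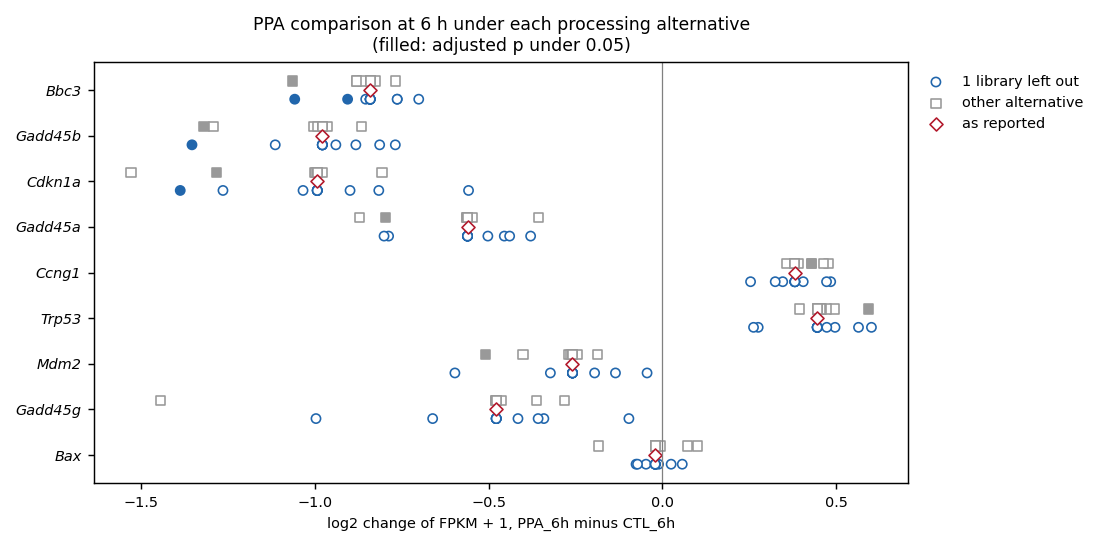
log2 difference of FPKM + 1 between PPA_6h and CTL_6h (x axis) for the 9 tested genes (rows), as reported, with 1 library left out and under each other alternative. Filled points have an adjusted p under 0.05; Bbc3 keeps its sign throughout and is filled in 2 of the fits that leave out a library.

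At 0 h, 0.0299% of tested genes were called, 3 in all, with 0.0199% higher and 0.00996% lower, and 0 of the 9 genes stood at an unadjusted p under 0.05, where 6.8% of all tested genes did. Cdkn1a had the largest difference, 0.65 ± 0.37 on the log2 scale (SE, 95% interval -0.16 to 1.46), with PPA_0h libraries at 57.5 to 80.8 FPKM and CTL_0h libraries at 28.5 to 58.7. Gadd45b differed by -0.54 ± 0.33 (-1.25 to 0.18) and Bbc3 by 0.30 ± 0.20 (-0.13 to 0.73). The other 6 differed by between -0.28 and 0.26. All groups of the 9 genes overlapped, where 6.57% of tested genes did not overlap with PPA_0h higher and 7.95% with PPA_0h lower.

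Whether the response to APAP itself differed between the diets was tested as the change in PPA mice minus the change in control mice. Of all tested genes, 0.00996% were called, which is 1 gene, and 0 of the 9. Bbc3 and Cdkn1a stood at an unadjusted p under 0.05, as did 9.26% of all tested genes. The difference of Bbc3 was -1.14 ± 0.28 on the log2 scale (SE, adjusted p = 0.324) and that of Cdkn1a was -1.65 ± 0.53 (adjusted p = 0.457). Without CTL_6h_3 the value of Bbc3 was -1.36 (adjusted p = 0.0388), and sample quality weights called both Bbc3, at -1.40 (adjusted p = 0.0130), and Cdkn1a, at -2.05 (adjusted p = 0.0228). The calls of Cdkn1a and Bbc3 after APAP in control mice, and their absence in PPA mice, do not show by themselves that the responses differed. Trp53 gave 0.51 ± 0.27 (95% interval -0.07 to 1.10), Mdm2 -0.52 ± 0.33 (-1.23 to 0.19), Gadd45a -0.51 ± 0.35 (-1.26 to 0.25) and Gadd45b -0.44 ± 0.47 (-1.45 to 0.57). Over the other 8 lists 0 genes were called.

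For Cdkn1a, Mdm2, Bbc3 and Gadd45b, the genes most like each across the 12 libraries were found by Pearson's r of log2(FPKM + 1), as a description, since the libraries share their groups and depth. Cdkn1a was most like Apbb3 (r = 0.978), Ddx24 (0.972) and Vcam1 (0.957). Mdm2 was most like Trp53inp1 (r = 0.985), Baz1a (0.984) and Btaf1 (0.983). Bbc3 was most like Fam63a (r = 0.944), Plaur (0.934) and Ubald1 (0.932), and Plaur averaged 0.879 FPKM in PPA_6h, 4.53 in CTL_6h, 0.299 in PPA_0h and 0.152 in CTL_0h. Gadd45b was most like Lemd2 (r = 0.971), Purb (0.950) and Adamts1 (0.948), and Adamts1 averaged 6.20 FPKM in PPA_6h, 14.4 in CTL_6h, 1.35 in PPA_0h and 1.65 in CTL_0h.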

How the data were processed

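Liver RNA of 12 libraries was measured by RNA-seq. Per the labels' protocols, Trizol extraction and poly(A) selection came before a ThruPLEX library kit. The authors deposited FPKM values, and the submitters' processing notes name HISAT2 2.1.0, Cufflinks, SAMtools 0.1.18-r580, Cuffdiff 2.1.1 and build mm10. For settings, annotation and strand, the sources used here give nothing.

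Groups came from the sample titles. A gene was tested if 3 or more of the 12 libraries reached 1 FPKM, which left 10044, on log2(FPKM + 1) with limma 3.58.1 in R 4.3.3: all libraries entered with a mean for each group, variances were moderated with a trend, p-values were adjusted after Benjamini and Hochberg across the whole table, and a call needed an adjusted p under 0.05. A fold on this scale understates changes of low genes. The script was tested on simulated data. Rows of short noncoding RNA (1306) were left out, as were Alb and Apoe, listed at 0 in every library of 1 or 2 groups, taken as failed estimates; the planned tests did not state this, and the hepatocyte marker list therefore counts 7 of its 8 genes. Depth was estimated from 1-fragment steps of low values in genes of at least 3000 bases, within 0.1 of a whole number for 63.6% to 74.1% of the values used in a library, so it is approximate. Coordinates are from GENCODE vM21, tables from pandas 2.3.3 and figures from matplotlib 3.10.9 in Python 3.11.15.

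The genes, lists and tests were chosen with earlier results of these data known. Besides the 10 genes, up to 4 called genes with the smallest p were named per list and APAP comparison, called genes per PPA comparison, and 3 genes most like each of 4 members; exceptions are named, and some genes that this rule names are not reported here. Alternatives covered pseudocounts of 0.1 and 0.5, the filter, scaling, quality weights, robust moderation, the samples fitted, a replicate block and leaving out each library.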

Additional observations from a re-analysis of the deposited data

How the results depend on the processing

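Over 976 alternative values of the 9 tested genes, 933 kept direction and side of the threshold, 17 passed it where the reported value had not, 26 changed sign and 0 lost a call. Some of these values could not change direction. The filter, robust moderation, fitting only the groups compared and leaving out a library of another group do not alter a log2 change between 2 groups. There, only the side of the threshold could move. The count of called genes moved as follows. For APAP in control mice, 2703 became 1799 with a mean FPKM of at least 5, which tests fewer genes, and 4269 with quality weights, and quantile normalization turned the split of 1522 higher and 1181 lower into 1307 higher and 1594 lower. For APAP in PPA mice, the split of 1502 higher and 1335 lower became 1400 higher and 1614 lower with quantile normalization and 1011 higher and 1045 lower with a mean FPKM of at least 5. For PPA at 6 h, 14 became 2 with a pseudocount of 0.1, 5 with no filter, 9 with robust moderation, 3633 with quality weights, 1 with the replicate block and 0 with only the groups compared, where limma gave 1135 genes an unadjusted p under 0.05. For PPA at 0 h, 3 became 6 with a pseudocount of 0.1, 1 with no filter, 10 with quality weights and 9 with only the groups compared. For the difference of responses, 1 became 523 with quality weights, 0 with quantile normalization (943 at an unadjusted p under 0.05) and 0 with the replicate block (663). Except where stated, the cause was not tested.

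Leaving out 1 library at a time gave 2007 to 3201 calls for APAP in PPA mice, 1828 to 2763 in control mice, 3 to 818 for PPA at 6 h, 1 to 5 at 0 h and 0 to 48 for the difference, with 48 without CTL_6h_3, 16 without PPA_6h_5 and 0 without CTL_6h_4. Signs turned only in values that were not called as reported. Leaving out libraries gave Trp53 -0.33 to 0.0073 for APAP in control mice and -0.17 to 0.055 for PPA at 0 h, Ccng1 -0.21 to 0.023 for APAP in PPA mice, Gadd45a -0.19 to 0.14 and Gadd45g -0.70 to 0.25 for PPA at 0 h, and Gadd45g -0.72 to 0.22 for the difference. Bax ranged from -0.11 to 0.18 for APAP in control mice, -0.076 to 0.057 for PPA at 6 h, -0.19 to 0.10 at 0 h and -0.12 to 0.17 for the difference. Bax was -0.0063 with median-of-ratios scaling and -0.031 with quantile normalization for APAP in control mice, and 0.10 with quantile normalization and 0.072 with quality weights for PPA at 6 h. Quality weights gave Gadd45a 0.045 for PPA at 0 h.

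Same-numbered libraries of different groups did not deviate together (r of -0.282 to 0.088 over 9 pairs). The 45 other pairs gave -0.285 to 0.377. These are deviations from means of 3 libraries, so the check cannot settle whether the numbers pair the samples. With the replicate block, limma called 1997 genes for APAP in PPA mice, 2109 in control mice and 3 for PPA at 0 h, and turned Trp53 to 0.066 and Mdm2 to -0.027 for PPA at 0 h, and Bax to -0.056 for APAP in PPA mice and -0.16 for the difference.

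Pmaip1 stayed under the filter of 1 FPKM and rested on few fragments, so it was not tested. Depth limits the 0 h values of Gadd45a. Intervals of the PPA comparisons at 6 h are wide enough that a miss of the threshold does not show equal levels.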
